A study of Mus musculus with 4 samples.

Results

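The genes described here are 9 members of the Nodal and BMP signalling pathways, chosen by name from the 24594 genes of a count table of mouse embryonic stem cells (ESCs). The Nodal arm holds 5 of them, the ligand Nodal, its co-receptor Tdgf1 and the inhibitors Lefty1, Lefty2 and Smad7. The BMP arm holds the other 4, the ligand Bmp4 and the target genes Id1, Id2 and Id3. All 9 were found in the table by Entrez identifier, and all 9 passed the filter on low counts, which left 13840 genes for testing. Poly(A) RNA was sequenced from ESCs of a 129S6/SvEvTac line in 2 wild-type (WT) libraries and 2 libraries of the snf2l knock-out (Snf2l KO). The targeted gene, Smarca1, encodes SNF2L, the motor subunit of some ISWI chromatin remodelers. No library had a treatment, and the study's methods describe culture with serum and leukemia inhibitory factor on gelatin. The methods also state that 1 clone was kept for each mutant genotype, so the effect of the deletion and that of the clone cannot be told apart.

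Nodal and BMP ligands belong to the TGF-beta family and signal through paired serine/threonine kinase receptors that phosphorylate SMAD proteins. Nodal uses the co-receptor Cripto, the product of Tdgf1, and acts through SMAD2 and SMAD3, whereas BMP4 acts through SMAD1, SMAD5 and SMAD9. SMAD4 is shared. Nodal signalling switches on its own inhibitors Lefty1 and Lefty2, and BMP signalling in ESCs is best known for sustaining the Id genes.

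Smarca1 (Entrez gene 93761, chromosome X) had 620 and 626 counts in WT and 37 and 31 in Snf2l KO, so the targeted transcript followed the labels. The libraries held between 13771642 and 15608803 counts, and replicates differed by more than sampling noise (chi-square per degree of freedom 5.41 for the WT pair and 7.78 for the Snf2l KO pair). The 8 ESC markers summed to 4379 and 4673 CPM (counts scaled to the size of the library) in WT and to 4639 and 4794 CPM in Snf2l KO, and none was at 0. Tdgf1 is 1 of these 8 markers, and among them Zfp42, a gene of chromosome 8, was called lower, at 66.0% of WT, and Klf4 was called higher. Markers of 5 other cell types summed to far less. The 4 primitive endoderm markers summed to 7.13 and 6.13 CPM in WT against 10.5 and 12.0 CPM in Snf2l KO. The 4 fibroblast markers summed to 13.0 and 10.96 against 24.0 and 25.1 CPM. The 3 neural markers summed to 72.0 and 72.6 against 35.4 and 35.5 CPM. In every library the 4 mesendoderm markers summed to between 3.32 and 4.14 CPM and the 3 trophoblast markers to between 56.0 and 66.3 CPM. Of the trophoblast sum, Tfap2c gave 55.6 to 65.4 CPM, Cdx2 0.29 to 0.91 CPM and Elf5 1 count in every library. Of these markers, 2 of primitive endoderm and 2 of fibroblasts were called higher. All 3 neural markers were called lower, of which Sox1 lies on chromosome 8. Of all genes 9.21% were called. In each list no marker was at 0 in all libraries, and the part of these markers in the results below was not tested. In bulk RNA, fewer cells that express a gene cannot be told apart from less RNA per cell.

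Lefty1 and Lefty2 are close copies of each other, and they are the members with the lowest adjusted p-values, so the sequences that separate them are shown first. Lefty2 (Entrez gene 320202, chromosome 1, 180893108 to 180899107, GRCm38) and Lefty1 (Entrez gene 13590, 180935022 to 180938401) lie near each other on the plus strand. Their coding sequences in GENCODE M21 are 1104 bases each, and 1014 bases (91.8%) are identical with no gap in the alignment. The stretch of 90 bases with the most differences, 27 of them, lies in exon 1 of both genes, at chr1:180935144-180935233 in Lefty1 and chr1:180893218-180893307 in Lefty2. Capitals mark the bases that differ:
Lefty1: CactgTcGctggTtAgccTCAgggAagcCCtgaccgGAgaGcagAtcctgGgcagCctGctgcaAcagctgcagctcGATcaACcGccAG
Lefty2: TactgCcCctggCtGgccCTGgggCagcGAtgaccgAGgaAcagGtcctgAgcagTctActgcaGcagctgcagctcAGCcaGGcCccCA
Of all runs of 50 bases in Lefty1 transcripts, 17.9% also occurred in Lefty2, and 12.0% of those of Lefty2 occurred in another gene. Most of the length of either gene was therefore particular to it. Tdgf1 shared 8.86% of such runs with its pseudogene Tdgf1-ps1, Bmp4 shared 2.18% and Id2 0.329% with other genes, and Nodal, Smad7, Id1 and Id3 shared 0. In the annotation, Bmp4 overlaps Gm15217 on the opposite strand over 89 exonic bases, and that gene had at most 7 counts in a library.

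The question addressed by the comparison is how much the transcriptome of ESCs depends on SNF2L. In the Nodal arm, the secreted inhibitors Lefty1 and Lefty2 were lower in Snf2l KO, at 62.9% and 46.1% of the WT level, while Nodal, Tdgf1 and Smad7 lay between 20.8% and 26.9% above WT without passing the test. A gene was called when its adjusted p-value in edgeR's quasi-likelihood test was under 0.05 over all 13840 genes. Of all genes 9.21% were called, 4.0% higher and 5.21% lower. Tested genes of chromosome 8 (754 genes) and chromosome Y (6 genes) had median log2 fold changes of -0.51 and -4.57, and the cause was not tested. No member lies on either chromosome. With both left out of the fit, 574 genes were called, against 1274 with them. The 9 members were chosen with earlier results of these data known, so their counts beside the shares of all genes are not a test. In the Nodal arm 2 of 5 members were called, both lower. In the BMP arm 1 of 4 was called, Bmp4, which was higher. At the stricter threshold of the study (adjusted p-value under 0.01 and a change of over 1 on the log2 scale), which 0.990% of all genes passed and 0.419% passed with a lower level, Lefty2 was the 1 member left. Without adjustment, 7 of the 9 members had a p-value under 0.05, as did 22.2% of all genes. Both Snf2l KO libraries lay above both WT libraries for 4 members, an order found for 25.2% of all genes, and below them for 2 members, against 25.3% of all genes.

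Lefty2 encodes a secreted protein that blocks Nodal by binding the ligand and its co-receptor. It had 368 and 445 counts in WT and 182 and 219 in Snf2l KO, or 27.0 and 29.0 CPM against 11.6 and 14.3 CPM. Both Snf2l KO libraries were far below both WT libraries. On the log2 scale Lefty2 fell by 1.12 (SE 0.131, 95% interval -1.40 to -0.84, adjusted p = 0.000118 in edgeR). In absolute size this change exceeded that of 98.2% of all genes tested.

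Lefty1, the nearby copy with the same inhibitory role, had 449 and 613 counts in WT and 344 and 370 in Snf2l KO. Its level was 33.0 and 39.99 CPM in WT and 21.9 and 24.1 CPM in Snf2l KO. The genotypes did not overlap, although the WT libraries differed from each other by more than those of Snf2l KO. The change of Lefty1 was -0.67 on the log2 scale (SE 0.122, 95% interval -0.93 to -0.41, adjusted p = 0.00259 in edgeR). With the counts of Lefty1 and Lefty2 summed, so that the split of shared reads no longer matters, the change was -0.85 (SE 0.111, adjusted p = 0.000261 in edgeR). Both genes stayed called at an adjusted p under 0.05 under every alternative and with any 1 library left out, with log2 fold changes from -1.27 to -0.97 for Lefty2 and from -0.80 to -0.52 for Lefty1 in the latter fits. Per kb of gene length, the ratio of Lefty2 to Lefty1 was 0.552 and 0.489 in WT and 0.356 and 0.399 in Snf2l KO.

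Nodal (Entrez gene 18119, chromosome 10, 61417972 to 61425338), the ligand that the Lefty proteins block, had 876 and 1166 counts in WT and 1236 and 1411 in Snf2l KO. These are 64.4 and 76.1 CPM against 78.8 and 91.8 CPM. The higher WT library and the lower Snf2l KO library were close to each other. The log2 fold change of 0.28 (SE 0.109, 95% interval 0.046 to 0.51) had an edgeR adjusted p of 0.141. In each library the level of Lefty1 and Lefty2 together was set against that of Nodal, per kb. This ratio was 0.948 and 0.933 in WT and 0.450 and 0.437 in Snf2l KO, so the spread within a genotype was small beside the distance between genotypes, and no test was run on the ratio.

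Tdgf1 (Entrez gene 21667, chromosome 9, 110939608 to 110946158) codes for Cripto, a membrane-anchored co-receptor for Nodal. It was the most abundant member, with 6817 and 8159 counts in WT and 9453 and 9926 in Snf2l KO, or 501 and 532 CPM against 603 and 646 CPM. All 4 values were high, and those of Snf2l KO were the higher pair. Its change was 0.27 on the log2 scale (SE 0.083, 95% interval 0.095 to 0.45, adjusted p = 0.0546 in edgeR). The ratio of Tdgf1 to Nodal per kb was 6.22 and 5.59 in WT and 6.11 and 5.62 in Snf2l KO.

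Smad7 (Entrez gene 17131, chromosome 18, 75367365 to 75395935) encodes an inhibitory SMAD that acts inside the cell on TGF-beta family receptors and is a target of the pathway itself. It had 537 and 561 counts in WT and 733 and 765 in Snf2l KO, which are 39.4 and 36.6 CPM against 46.7 and 49.8 CPM. Replicates were close and the genotypes did not overlap. The log2 fold change was 0.34 (SE 0.103, 95% interval 0.12 to 0.56), and the edgeR adjusted p of 0.05003 lay just above the threshold. Smad7 and Tdgf1 changed sides of the threshold with the scaling of libraries. With upper-quartile scaling or with library size alone both were called, Smad7 at adjusted p = 0.0351 and 0.0374 and Tdgf1 at 0.0410 and 0.0403 in edgeR, whereas DESeq2 gave 0.144 and 0.0996. With 1 library left out, log2 fold changes were 0.17 to 0.40 for Nodal, 0.29 to 0.40 for Smad7 and 0.22 to 0.32 for Tdgf1. These genes were all called without Snf2l KO replicate 1, where more of all genes were called than in the main fit. Without any other single library none of them was called.

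**Figure D1:**
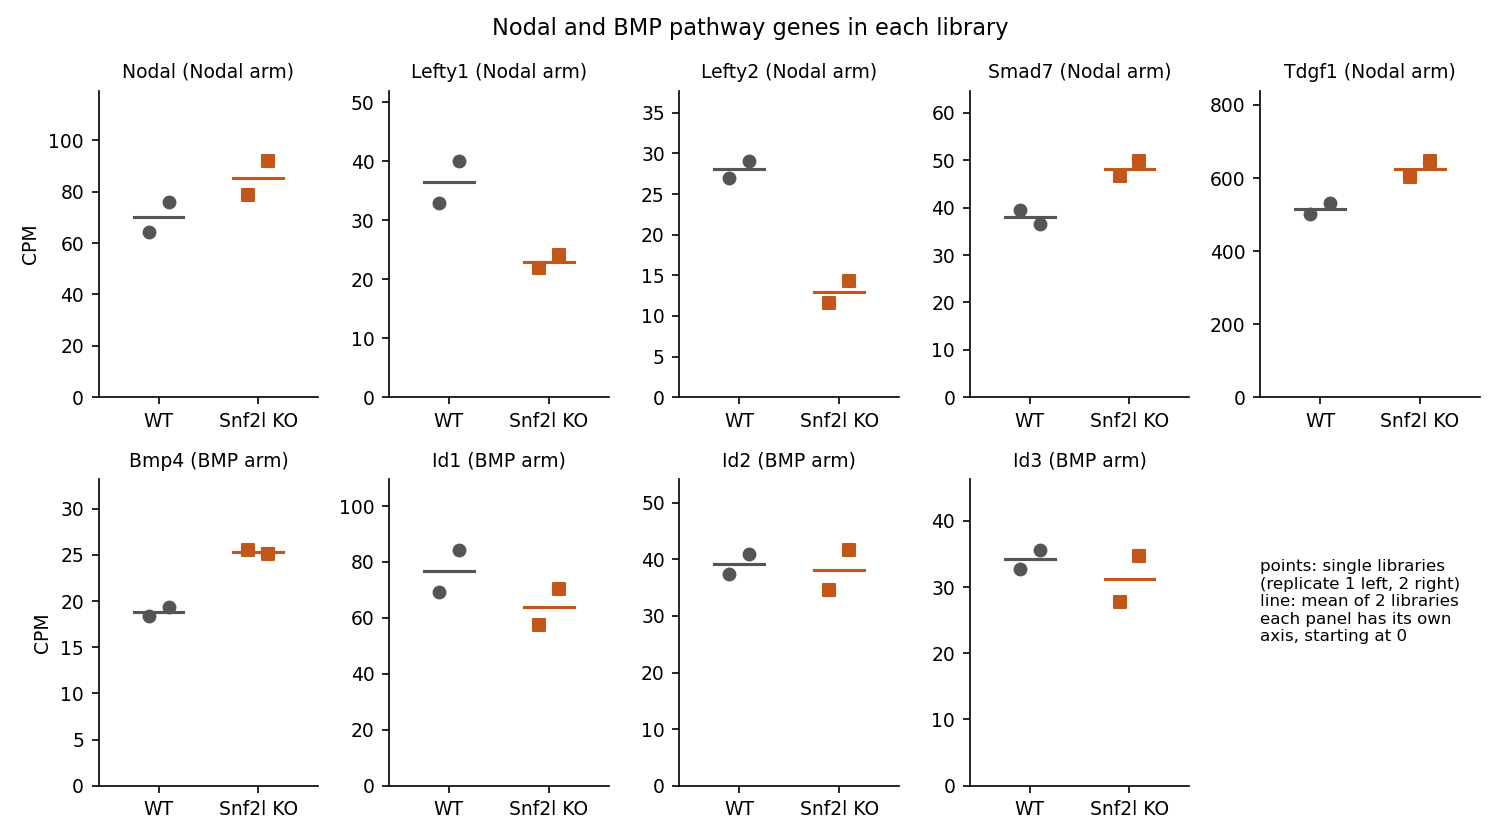
Level in CPM (vertical axis, from 0 and on its own scale in each panel) of the 9 genes in the 2 WT libraries (circles) and the 2 Snf2l KO libraries (squares), with a line at each mean. For Lefty1, Lefty2, Nodal, Smad7, Tdgf1 and Bmp4 the genotypes do not overlap, whereas for Id1, Id2 and Id3 they do.

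In the BMP arm the ligand was higher while its target genes did not pass the test. Bmp4 (Entrez gene 12159, chromosome 14, 46383525 to 46390669) encodes the ligand that induces Id genes in ESCs. It had 250 and 296 counts in WT and 401 and 386 in Snf2l KO, or 18.4 and 19.3 CPM against 25.6 and 25.1 CPM. Each pair of replicates was tight and the pairs were apart. The log2 fold change was 0.43 (SE 0.115, 95% interval 0.18 to 0.67, adjusted p = 0.0302 in edgeR), a level 34.4% above WT. The genes of chromosome 14 had a median log2 fold change of -0.071. The call was lost without WT replicate 1 (adjusted p = 0.224 in edgeR) and without WT replicate 2 (0.108). It was also lost with DESeq2 (0.121), with a filter of at least 1 count in any library (0.0510 in edgeR) and with chromosomes 8 and Y left out of the fit (0.0601 in edgeR). The direction held in each of these.

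Id proteins bind basic helix-loop-helix factors and keep them from DNA. Id1 (Entrez gene 15901, chromosome 2, 152736251 to 152737410) had 69.3 and 84.4 CPM in WT and 57.6 and 70.4 CPM in Snf2l KO, from 943, 1293, 904 and 1082 counts. The higher Snf2l KO library lay above the lower WT library. The log2 fold change was -0.26 (SE 0.119, 95% interval -0.52 to -0.01, adjusted p = 0.204 in edgeR). Without Snf2l KO replicate 2 it was -0.42 and called (adjusted p = 0.00934 in edgeR), and without WT replicate 2 it was -0.12.

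Id2 (Entrez gene 15902, chromosome 12, 25093799 to 25096092) had 37.4 and 40.9 CPM in WT and 34.7 and 41.7 CPM in Snf2l KO. Its WT values lay between those of Snf2l KO. Id2 was at -0.04 on the log2 scale (SE 0.115, adjusted p = 0.895 in edgeR), and the 95% interval allowed a level from 0.822 to 1.16 times WT. Id3 (Entrez gene 15903, chromosome 4, 136143822 to 136145392) had 32.8 and 35.6 CPM in WT and 27.8 and 34.6 CPM in Snf2l KO, again overlapping. Its log2 fold change was -0.13 (SE 0.122, adjusted p = 0.581 in edgeR), with an interval from 0.761 to 1.09 times WT. Changes of Id2 and Id3 within these bounds were not detectable with 2 libraries a genotype.

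For the Id genes the distance between replicates was as large as that between genotypes. The level in replicate 2 was 1.22, 1.09 and 1.09 times that in replicate 1 for Id1, Id2 and Id3 in WT, and 1.22, 1.20 and 1.25 times in Snf2l KO. Bmp4 had ratios of 1.05 and 0.983. Per kb, Id1 was 7.31 and 8.47 times as abundant as Bmp4 in WT and 4.37 and 5.43 times in Snf2l KO.

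The upstream sequences of this arm are shown for the ligand that was called and for both Id genes with an entry in the RefSeq table (GRCm38.p6), which holds 5 of the 9 members. Each is the 250 bases before the annotated start, 5′ to 3′ on the gene's strand. Capitals mark matches on either strand to the GC-rich SMAD element GGCGCC or to the SMAD box CAGAC:
Bmp4, chr14:46390670-46390919, minus strand: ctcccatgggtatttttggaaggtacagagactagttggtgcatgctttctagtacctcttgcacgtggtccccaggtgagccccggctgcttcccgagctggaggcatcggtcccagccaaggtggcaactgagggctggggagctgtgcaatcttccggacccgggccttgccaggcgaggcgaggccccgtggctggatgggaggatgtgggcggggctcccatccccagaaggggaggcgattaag
Id2, chr12:25096093-25096342, minus strand: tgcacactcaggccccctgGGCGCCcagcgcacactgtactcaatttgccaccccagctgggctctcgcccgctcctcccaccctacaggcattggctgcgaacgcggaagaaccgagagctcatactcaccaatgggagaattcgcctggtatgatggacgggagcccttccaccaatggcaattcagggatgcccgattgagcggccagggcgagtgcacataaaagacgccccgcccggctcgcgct
Id3, chr4:136143572-136143821, plus strand: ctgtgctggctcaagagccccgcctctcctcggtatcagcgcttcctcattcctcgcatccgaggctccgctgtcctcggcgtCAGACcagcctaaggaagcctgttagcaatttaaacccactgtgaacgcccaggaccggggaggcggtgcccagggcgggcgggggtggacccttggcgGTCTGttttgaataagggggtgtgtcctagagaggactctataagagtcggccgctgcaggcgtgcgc
The GC-rich element was found in Id2 at 231 bases before the start, and it was present in 9.59% of 32851 promoter windows of the same length. The SMAD box was found 2 times in Id3, at 167 and 68 bases before the start, and also in Tdgf1 at 113 bases. It was present in 42.2% of all windows. The motifs do not overlap each other here. The windows of Nodal and Bmp4 held neither, and none of the 5 windows held the palindrome GTCTAGAC (0.167% of all windows) or the FOXH1 motifs AATCCACA (0.718%) and AATACACA (0.895%).

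**Figure D2:**
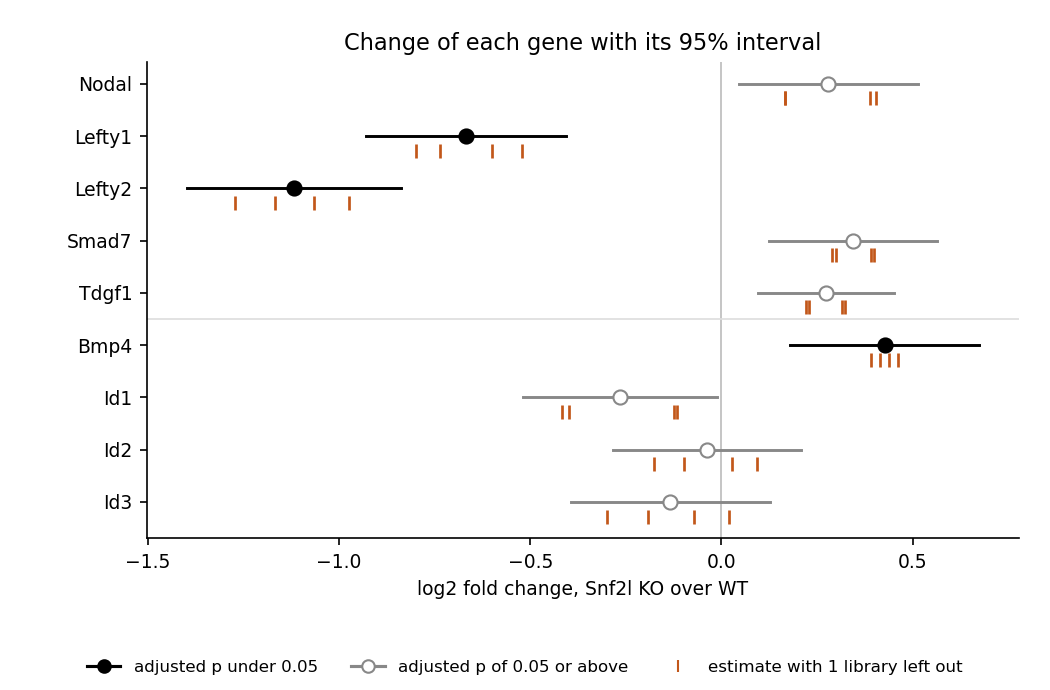
Log2 fold change of Snf2l KO over WT (horizontal axis) for the 9 genes, with 95% intervals, filled points for an adjusted p-value under 0.05 and ticks for the estimates with 1 library left out. The intervals of Lefty1, Lefty2 and Id1 lie below 0 and those of Nodal, Smad7, Tdgf1 and Bmp4 above it, whereas those of Id2 and Id3 span 0.

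Levels can be compared between genes per kb of length. In WT the order was Tdgf1 (197 ± 8.50 CPM per kb, SD, n = 2), Id1 (66.2 ± 9.20), Nodal (33.5 ± 3.96), Id3 (21.1 ± 1.25), Lefty1 (20.8 ± 2.82), Id2 (19.9 ± 1.26), Lefty2 (10.7 ± 0.542), Smad7 (8.41 ± 0.445) and Bmp4 (8.38 ± 0.298). The first 3 genes stood apart from each other and from the rest in both WT libraries. The WT ranges of Id3 and Lefty1 overlapped, as did those of Lefty1 and Id2 and those of Smad7 and Bmp4, so these neighbours in the order did not differ beyond their spread. In Snf2l KO, Lefty2 was the lowest of the 9 at 4.95 ± 0.718 CPM per kb, and Bmp4 (11.3 ± 0.139) and Smad7 (10.7 ± 0.479) were above it.

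**Figure D3:**
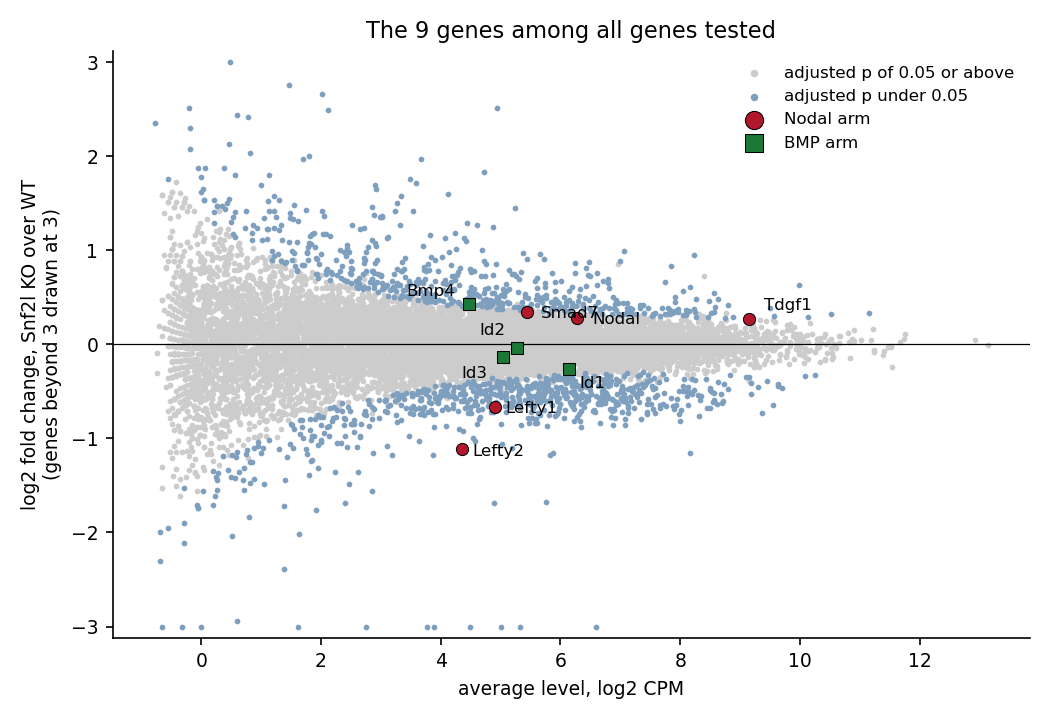
Log2 fold change (vertical axis, genes beyond 3 drawn at 3) against the average level in log2 CPM (horizontal axis) of all genes tested, with the Nodal arm as circles and the BMP arm as squares. Lefty1 and Lefty2 lie among the called genes below 0, Lefty2 lower than most of them, and Id2 and Id3 lie near 0.

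The rest of the Nodal and Activin pathway was read from a list of 38 genes, the 5 members included, of which 29 were tested. The list was chosen with earlier results of these data known, so the share of calls in it was not a test. It had 7 calls, 5 higher and 2 lower, or 24.1% of its tested genes against 9.21% of all genes. Without the 5 members, 5 of 24 tested genes were called (20.8%). The list had a median log2 fold change of 0.017, against 0.00020 for all genes tested. Without WT replicate 2 it had 4 calls. Besides the Lefty genes, the called genes were 2 ligands, 1 receptor and 2 inhibitors, all higher. The list also takes in ligands and receptors of TGF-beta itself, and 1 of these ligands and the receptor are TGF-beta genes (Tgfb2 and Tgfbr2).

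Among the ligands, Inhbb, which codes for a subunit of activin and inhibin, had 119 and 116 CPM in WT and 166 and 153 CPM in Snf2l KO. Its log2 fold change was 0.44 (SE 0.090, adjusted p = 0.00585 in edgeR), and the call was lost without WT replicate 2. Tgfb2, a TGF-beta ligand, rose from a low level, with 21 and 15 counts in WT and 92 and 60 in Snf2l KO, at 1.97 on the log2 scale (SE 0.294, adjusted p = 0.000681 in edgeR). It stayed called with any 1 library left out.

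Of the receptors of the Nodal and Activin list 1 was called, and of the transducers none in edgeR. Tgfbr1, a TGF-beta receptor and the most abundant receptor of the list, was at -0.04 (95% interval -0.30 to 0.22). The 4 tested receptors without a call lay between -0.16 and -0.04. Tgfbr2, the type II receptor for TGF-beta, had 7 and 6 counts in WT and 21 and 20 in Snf2l KO and was called at 1.54 (SE 0.407, adjusted p = 0.0272 in edgeR), but in none of the 4 fits with 1 library left out. Before adjustment, 3 of the 5 transducers were under 0.05 in edgeR, as were 22.2% of all genes, and DESeq2 called 0 of the 5. These 3 did not overlap between genotypes. Both Snf2l KO libraries lay above both WT libraries for 25.2% of all genes and below them for 25.3%. Tgif1, a SMAD corepressor and the most abundant of them, was at 0.25 (95% interval 0.064 to 0.43, adjusted p = 0.0911 in edgeR). Foxh1, the DNA-binding partner of SMAD2, was at -0.33 (95% interval -0.56 to -0.089, adjusted p = 0.0856 in edgeR) and Smad4 at -0.26 (95% interval -0.46 to -0.062, adjusted p = 0.102 in edgeR), both chosen after their values were seen. Pcsk6, the more abundant of the convertases that cleave the Nodal precursor, was at 0.16 (95% interval -0.05 to 0.36).

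Of the inhibitors that act inside the cell, Pmepa1 and Skil were called higher, Smad7 was not called, and Ski, a SMAD corepressor related to Skil, overlapped between genotypes at 0.017 (adjusted p = 0.944 in edgeR). Ski was chosen after its values were seen. Pmepa1, which binds SMAD2 and SMAD3 and limits their phosphorylation, had 19.2 and 18.1 CPM in WT and 27.7 and 28.6 CPM in Snf2l KO. Its log2 fold change of 0.59 (SE 0.115, adjusted p = 0.00385 in edgeR) stayed called in each leave-one-out fit. Skil, which codes for the SMAD corepressor SnoN, had 222 and 200 CPM in WT and 275 and 263 CPM in Snf2l KO and was at 0.35 (SE 0.089, adjusted p = 0.0222 in edgeR). This call was lost without either WT library. Pmepa1, Skil, Smad7 and the Lefty genes are all known as targets of SMAD2 and SMAD3 signalling, and the calls among them were in both directions. Of the 6 mesendoderm and node targets in the list, 3 were tested and 0 were called in edgeR, with 0 at an unadjusted p-value under 0.05. DESeq2 gave an adjusted p for Eomes alone and did not call it. Eomes, the most abundant of these, had 27 to 48 counts in a library.

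The BMP list held 32 genes, of which 23 were tested and 4 called, 2 higher and 2 lower. This is 17.4% of its tested genes, against 9.21% of all genes, with a median log2 fold change of -0.03 against 0.00020. Without the 4 members, 3 of 19 tested genes were called (15.8%). This list too was chosen with earlier results of these data known. The list had 2 calls without WT replicate 1, 0 without WT replicate 2, 0 with DESeq2 and 0 with chromosomes 8 and Y left out. Chrd, which codes for the BMP antagonist chordin, had 65 counts in each WT library and 102 and 121 in Snf2l KO, at 0.67 (SE 0.182, adjusted p = 0.0298 in edgeR). Bmpr1b, a type I BMP receptor at a low level, had 26 and 41 counts in WT and 19 and 11 in Snf2l KO, at -1.25 (SE 0.337, adjusted p = 0.0295 in edgeR). Both calls were lost without WT replicate 2 and without Snf2l KO replicate 2.

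Smad1, a transducer of BMP signals, had 19.2 and 20.6 CPM in WT and 15.2 and 13.7 CPM in Snf2l KO and was at -0.46 (SE 0.127, adjusted p = 0.0333 in edgeR). It lies on chromosome 8, whose tested genes had a median of -0.51, and its distance from that median was 0.044. Its call held in 1 of 4 leave-one-out fits, that without Snf2l KO replicate 1. The other tested transducer, Smad5, was at 0.029 (95% interval -0.19 to 0.24). The most abundant receptor, Bmpr1a, was at -0.19 (95% interval -0.41 to 0.022), and the most abundant inhibitor, Smurf2, a ubiquitin ligase, at -0.16 (95% interval -0.40 to 0.088). All 6 tested target genes of the list, the Id genes among them, lay between -0.26 and 0.42, and 0 were called in edgeR, with 1 (Id1) at an unadjusted p-value under 0.05 and 0 called by DESeq2.

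**Figure D4:**
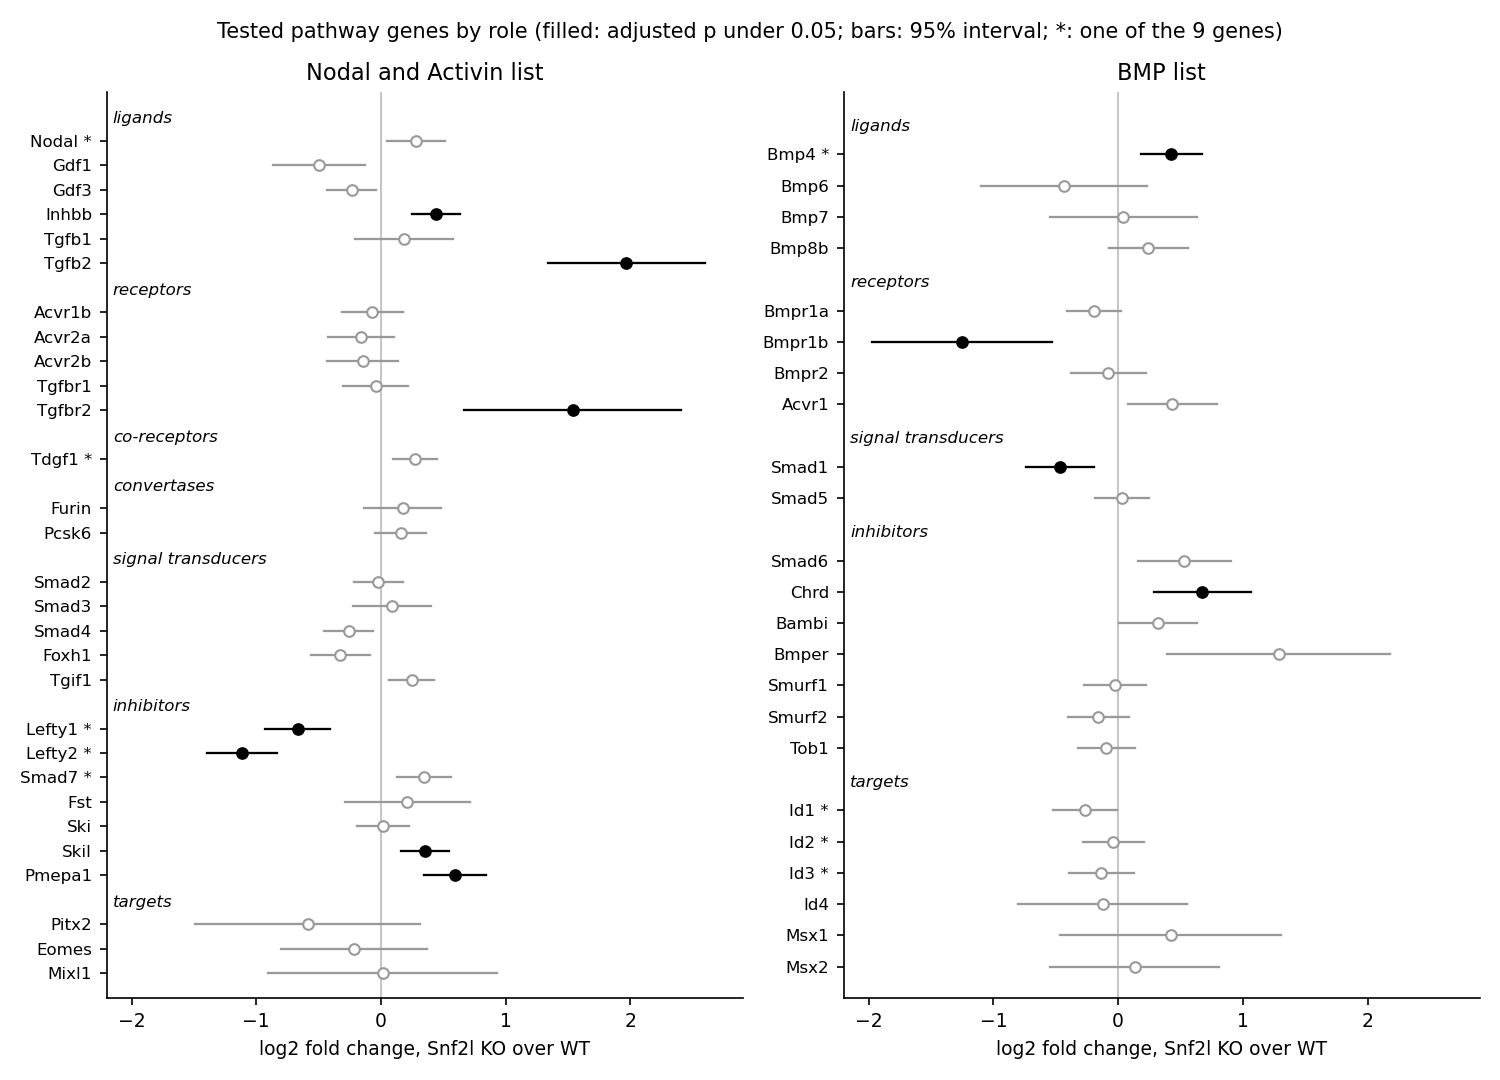
Log2 fold change of Snf2l KO over WT (horizontal axis) with 95% intervals for every tested gene of the Nodal and Activin list (left) and the BMP list (right), ordered by role, with filled points for an adjusted p-value under 0.05. In the left panel the filled inhibitors lie on both sides of 0, Lefty1 and Lefty2 below and Skil and Pmepa1 above it.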

How the data were processed

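The authors deposited 1 table of raw read counts per gene, with a column for each library and a gene length in bp. They had aligned reads to mm10 with QuasR (HISAT2, spliced) and counted over UCSC Known Genes, 1 row per Entrez gene. The labels name a stranded library kit and the study's methods a kit that does not keep strand, and whether counting used strand is not given in the sources used here. Symbols and positions were matched by Entrez identifier for 24570 of 24594 genes (99.9%) to the RefSeq table of GRCm38, the assembly of mm10.

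The tests used edgeR 4.0.16 in R 4.3.3, with filterByExpr (minimum count 10), TMM scaling and the legacy quasi-likelihood test with genotype as the only term. All 4 libraries entered, tests were two-sided, and p-values were adjusted over all genes by the Benjamini-Hochberg method. SE and 95% intervals came from the F statistic. CPM used TMM-scaled library sizes, and SD is over 2 libraries. The study describes its RNA-seq replicates as independent and its replicates as biological, but the labels do not say whether they were separate cultures. As 1 clone was kept for each mutant genotype, p-values measure only the spread between these libraries. The procedure was tested on simulated data. Alternatives were DESeq2 1.42.0, 3 other scalings, a block for the replicate number, 2 other filters, 2 other edgeR settings, chromosomes 8 and Y left out, Lefty1 and Lefty2 summed, the threshold of the study, and each library left out, which leaves a genotype with 1 library assumed to vary like the other.

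The 9 members and both pathway lists were chosen with earlier results of these data known. Pathway genes named are the members, list genes with a call and the most abundant gene of each role. Any other list gene is said to be chosen after its values were seen. Smarca1 was named as the targeted gene. Single cell type markers had no such rule and were named with their values known. Shared runs of 50 bases, a length chosen here, were counted in GENCODE M21 transcripts.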

Additional observations from a re-analysis of the deposited data

How the results depend on the processing

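Of 128 alternative values computed for the 9 members, 106 kept their direction and side of the threshold, 5 were weaker, 14 stronger and 3 reversed. Lefty1 and Lefty2 kept their calls in all of these. The threshold of the study is not among them, and Lefty1 did not pass it. Smad7 was called at 0.35 with RLE scaling and with at least 10 counts in every library, at 0.38 with upper-quartile scaling and at 0.36 with library size alone; Tdgf1 was called at 0.30 and 0.29 in the latter pair. Bmp4 was not called with DESeq2 (0.43), with at least 1 count in any library (0.43) or with chromosomes 8 and Y left out (0.41). With the replicate number as a block, Nodal (0.28), Smad7 (0.35), Tdgf1 (0.27) and Id1 (-0.26) were called as well, with 5 Nodal arm members, 2 BMP arm members, 15 genes of the Nodal and Activin list, 9 of the BMP list and 3471 of all genes called. Across genes, libraries with the same replicate number deviated from their group means with a correlation of 0.196. With 2 pairs this is no proof of a pairing, and the fit with the block left 1 residual degree of freedom.

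With 1 library left out, log2 fold changes ranged from 0.17 to 0.40 for Nodal, 0.29 to 0.40 for Smad7, 0.22 to 0.32 for Tdgf1, 0.39 to 0.46 for Bmp4, -0.42 to -0.12 for Id1, -0.18 to 0.092 for Id2 and -0.30 to 0.019 for Id3. Calls then ranged from 2 to 5 in the Nodal arm, 0 to 2 in the BMP arm, 4 (without WT replicate 2) to 9 in the Nodal and Activin list, 0 (without WT replicate 2) to 4 in the BMP list and 829 (without WT replicate 1) to 1932 (without Snf2l KO replicate 1) over all genes. The Nodal arm had 5 without Snf2l KO replicate 1, and the BMP arm 0 without either WT library and 2 without Snf2l KO replicate 2.

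Among all genes 1274 were called, 799 with DESeq2, 574 with chromosomes 8 and Y left out and 137 at the threshold of the study, which left 1 Nodal arm member, 0 BMP arm members, 2 genes of the Nodal and Activin list and 0 of the BMP list. With chromosomes 8 and Y left out 64.5% of calls were higher, against 43.4%. The Nodal arm had 4 calls with upper-quartile scaling and 4 with library size alone. The BMP arm and BMP list had 0 calls with DESeq2 and with chromosomes 8 and Y left out, and 0 and 1 with at least 1 count in any library. In CPM without length, the positions in the order of WT levels moved to 4 for Id2, 5 for Smad7, 6 for Lefty1, 7 for Id3 and 8 for Lefty2. For 15 other named genes, Smarca1 and Tmem63a, 25 of 235 values were weaker, 2 stronger (Tgif1 and Bmpr1a, called with the replicate block) and 4 reversed. Foxh1, Smad4 and Ski were not in this tally. The reversed values all came from leaving out 1 library, where Tgfbr1 ranged from -0.22 to 0.12, Eomes from -0.67 to 0.13 and Smad5 from -0.061 to 0.12. The causes were not tested.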

Other observations

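The tested genes around the Lefty genes on chromosome 1 were listed after the fall of Lefty1 and Lefty2 had been seen. Of 11 such genes, 1 was called, against 9.21% of all genes. This was Tmem63a, which codes for a mechanosensitive ion channel and is the next gene after Lefty1. It had 134 and 155 counts in WT and 95 and 109 in Snf2l KO, or 9.84 and 10.1 CPM against 6.06 and 7.09 CPM, so that both Snf2l KO libraries were lower. It was at -0.60 on the log2 scale (SE 0.157, adjusted p = 0.0249 in edgeR), and the call held in 1 of 4 fits with a library left out, that without Snf2l KO replicate 2, and not with DESeq2. The other neighbours were not called. The median log2 fold change of all tested genes on chromosome 1 was 0.090.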
